A study of Mus musculus with 4 samples.

Results

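The transcriptional response of the plantaris muscle of control mice to mechanical overload was examined as the log2 value of the synergist ablation array minus that of the sham array, gene by gene. This comparison rests on 2 of the 4 arrays of the series, and every gene with at least 1 probe set annotated to that gene alone was included, which gave 22180 genes from 41345 probe sets. The arrays (Affymetrix Mouse Gene 2.0 ST) were hybridized with plantaris RNA of control mice after synergist ablation, control mice after sham surgery, M-PDK1KO mice after synergist ablation and M-PDK1KO mice after sham surgery, with 1 array per condition. In ablation surgery the gastrocnemius and soleus of both lower limbs are taken out, which loads the remaining plantaris, and all muscles were collected 10 days later. The mice were males on a C57/BL6 background, and no age is stated for the animals behind the arrays. The labels call the control mice wild type, whereas the methods describe controls that carry homozygous floxed alleles of the PDK1 gene without Cre. M-PDK1KO mice carry the same alleles with Cre driven by the promoter of the myosin light chain 1f gene, which is active in skeletal muscle fibers, and they serve here only as a second set of arrays. Whether an array represents 1 mouse or a pool is not stated.

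Skeletal muscle grows under load by enlarging its fibers, which involves protein synthesis, the addition of nuclei by fusion of satellite cells, and remodeling of the matrix and the tendon to which the fibers attach. Surgical overload is a strong and abrupt stimulus, so the muscle also passes through a phase of fiber repair in which macrophages clear debris and embryonic forms of contractile proteins are made again. The plantaris of the mouse is a fast muscle, and chronic loading is known for inducing slow contractile genes in such muscles.

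The 4 arrays had nearly the same distribution, with medians over all probe sets of 2.69 in ablated control muscle, 2.66 in sham-operated control muscle, 2.69 in ablated M-PDK1KO muscle and 2.68 in sham-operated M-PDK1KO muscle. The markers of skeletal muscle were present on both control arrays. Acta1, skeletal muscle actin, had log2 values of 12.65 after ablation and 12.66 after sham surgery, Ckm (muscle creatine kinase) 12.22 and 12.59, and Des (desmin) 11.64 and 11.36. The median of all gene values, 3.23, is used here as a mark of low signal, and 11633 genes exceeded it on at least 1 control array. Below, the level of a gene is its log2 value, and its response is log2(ablation/sham). The deposited values come with no call against background, so for a gene below 3.23 on one array the response is a difference of array values and not a measured fold of RNA. Besides the genes whose levels are printed, this holds for Ms4a7, Csrp2, Mmp12, Acan, Mkx, C4b, Oasl2, Psmb9, Itgax, Csf3r, Atp6v0d2, Bcat1, Pdk3, Slc38a1 and Slc1a4 after sham surgery and for Tfeb after ablation, all named below.

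The response was wide and asymmetric. In control muscle, 995 genes (4.49%) were at least 2-fold higher after ablation and 564 genes (2.54%) were at most 0.5-fold, with a median response of -0.02 over all genes. The upper tail reached further than the lower one. At least 4-fold higher were 252 genes against 34 genes at most 0.25-fold, and at least 8-fold higher were 50 genes against 3 at most 0.125-fold. At least 16-fold higher were 14 genes, and no gene was at or below the inverse of that fold. The cutoff cuts through a dense range of values, since 131 of the 995 genes lay within 0.1 above it on the log2 scale and a further 178 genes lay within 0.1 below it. On the lower side, 157 genes lay within 0.1 past the cutoff and 207 within 0.1 short of it.

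**Figure D1:**
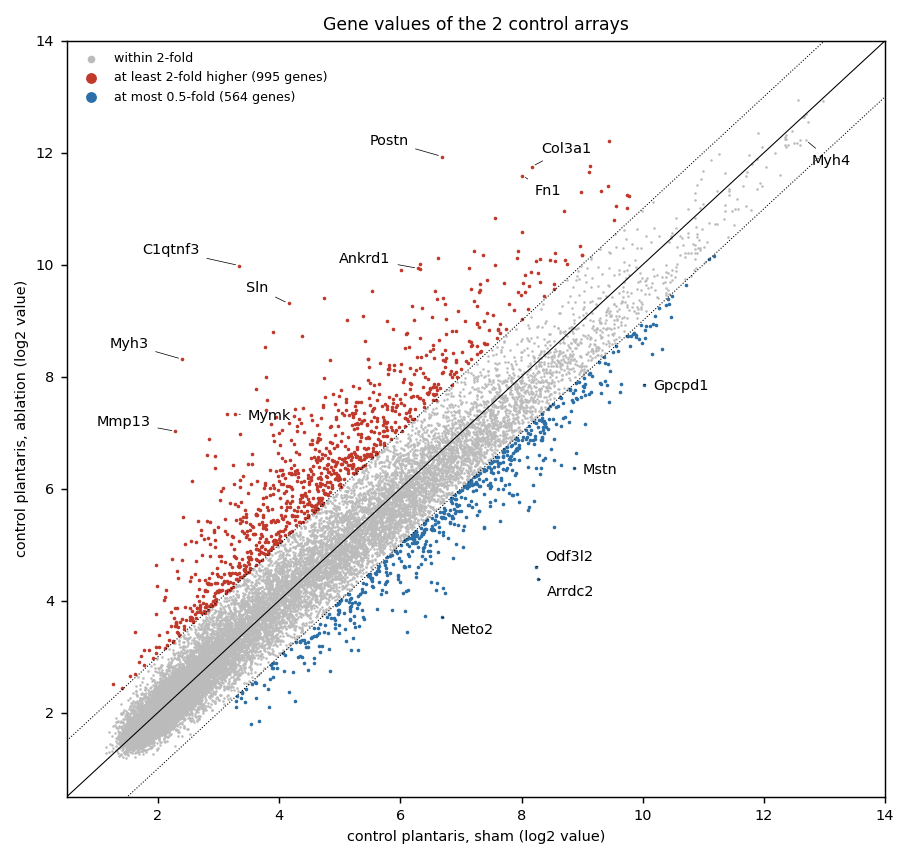
Log2 values of 22180 genes in ablated control plantaris (vertical axis) against sham-operated control plantaris (horizontal axis), 1 array each, with dotted lines at the 2-fold and 0.5-fold cutoffs. The 995 genes past the upper line extend further from the diagonal than the 564 genes past the lower line. Genes among the highest on both arrays lie close to the diagonal.

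With 1 array a side, the control response has no replicate and no test of its own. The fit available was limma over all 4 arrays with terms for genotype and ablation, which tests the mean effect of ablation over both genotypes with 1 residual degree of freedom. It called 2309 genes (10.4%) higher and 2354 genes (10.6%) lower after ablation at an adjusted p under 0.05. These shares of all genes are the comparison for the list counts below, with 4.49% and 2.54% for the 2-fold and 0.5-fold cutoffs. In what follows, genes are said to rise or fall only where this fit called them, and the size given is that in control mice. Of the 995 genes, 962 were called higher, and of the 564 genes, 537 were called lower, which follows in large part from their choice, since the fit includes the control response. The M-PDK1KO arrays gave a response of the same sign for 987 of the 995 genes and for 557 of the 564. Over all 22180 genes, the sign was the same for 15262. Of the 995 and the 564 genes, 790 and 390 also passed the cutoff in M-PDK1KO muscle, and no count over all genes is given beside these. For scale, arrays of the same surgery but different genotype differed 2-fold in 36 genes after sham surgery (0.162%) and in 31 genes after ablation (0.14%), and the SD over genes was 0.24 and 0.23 for these differences, against 0.57 for the control response.

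The response depended on the level of the gene. When genes were binned by their mean level on the M-PDK1KO arrays, which the control response does not use, 31 of 10148 genes below a level of 3 (0.305%) were at least 2-fold higher in control muscle. Between levels of 5 and 6 the share was 276 of 2476 genes (11.1%), with 118 genes (4.77%) at most 0.5-fold. At levels of 9 to 10, 25 of 222 genes (11.3%) were at most 0.5-fold and 23 (10.4%) at least 2-fold higher, and none of the 56 genes at 11 or more passed either cutoff. The median response was -0.33 for genes at levels of 8 to 9. The number of arrays and the narrow range at both ends of the scale limit the precision of these values.

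Of the 995 genes, 177 had a sham level below 3.23. Among genes outside the unnamed models, receptor families and small RNAs, 9 such genes reached a level of 6 or more after ablation. They were Myh3 (embryonic myosin), Mmp13 (a collagenase), Lrrc15 and Tnn (proteins of activated fibroblasts and of the tendon matrix), P4ha3 (a collagen prolyl hydroxylase), Mpeg1 and Ms4a7 (macrophage genes), Tnfaip6 (a hyaluronan-binding protein of inflamed tissue) and Csrp2 (a LIM domain protein). Mpeg1, which encodes a pore-forming protein of macrophages, had levels of 6.90 after ablation and 2.84 after sham surgery in control muscle and of 6.89 and 3.26 in M-PDK1KO muscle. P4ha3 had levels of 6.59 after ablation and 2.81 after sham surgery in control muscle, and 6.70 and 2.55 in M-PDK1KO muscle. The gap between the control arrays follows from the choice of Mpeg1 and P4ha3 by their control levels. The M-PDK1KO arrays, which the choice did not use, differed by 3.63 for Mpeg1 and by 4.15 for P4ha3, higher after ablation.

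In the opposite direction, 13 genes had a sham level of 6 or more and a level below 4.5 after ablation. Ostn, which encodes the muscle hormone osteocrin, had levels of 3.73 after ablation and 6.41 after sham surgery in control muscle and of 2.68 and 4.12 in M-PDK1KO muscle. It fell by 2.68 in control mice (limma, adjusted p = 0.0092), while its level in sham-operated M-PDK1KO muscle was already low. Aqp4, the water channel of fast fiber membranes, had levels of 4.14 after ablation and 6.74 after sham surgery in control muscle and of 4.70 and 6.89 in M-PDK1KO muscle, a fall of 2.60 in control mice. Ppara, a nuclear receptor for fatty acids, fell by 1.93, and Htra4, a serine protease gene, fell by 2.26. Among the 30 lowest responses were also Gpcpd1 (a glycerophosphocholine phosphodiesterase, fell by 2.16), Abcd2 (a peroxisomal fatty acid transporter, fell by 2.12), Adhfe1 (an alcohol dehydrogenase of mitochondria, fell by 2.11), Chac1 (a glutathione-degrading enzyme, fell by 2.08) and Maob (monoamine oxidase B, fell by 2.03). Mettl21e was the exception among them, with levels of 2.21 after ablation and 4.26 after sham surgery in control muscle but 2.33 and 2.91 in M-PDK1KO muscle, and limma did not call it (adjusted p = 0.0522).

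**Figure D2:**
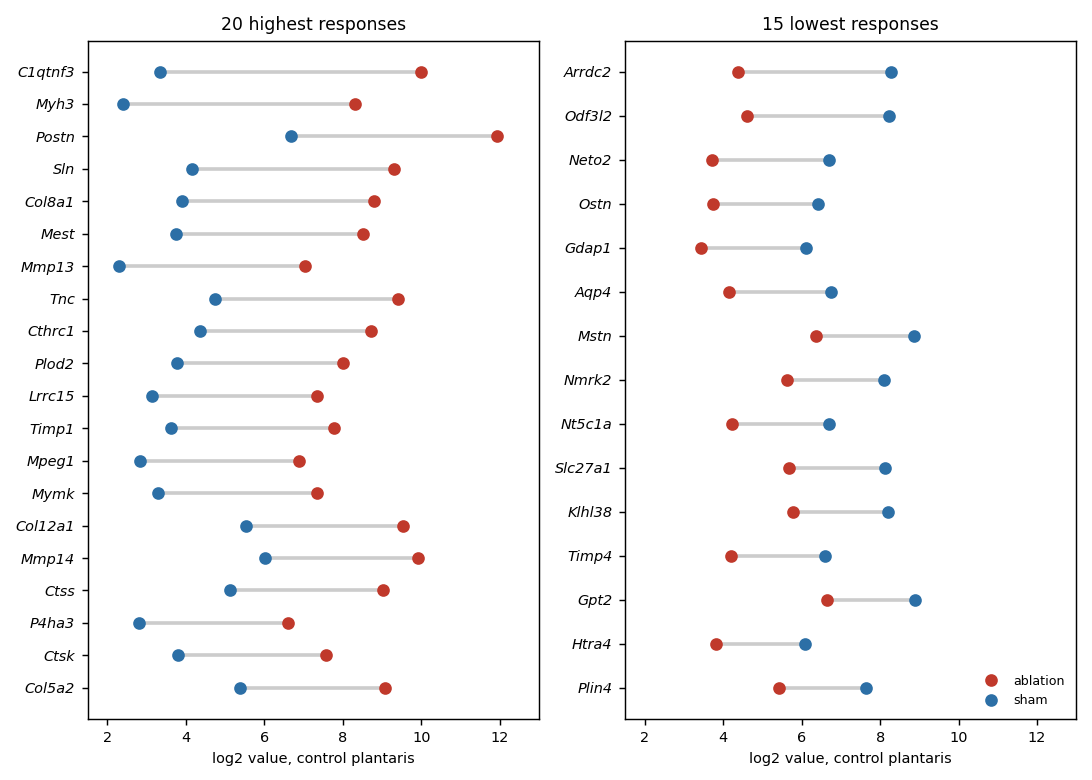
Log2 values in control plantaris of the 20 genes with the highest responses (left) and the 15 with the lowest (right), after ablation and after sham surgery, 1 array each. The highest responses run from C1qtnf3 at 6.64 to Col5a2 at 3.69 and the lowest from Arrdc2 at -3.89 to Plin4 at -2.23.

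Most contractile genes of immature and of slow fibers rose, while most of those of mature fast fibers moved little or fell. Of 26 genes of the developmental sarcomere and its anchoring, 17 rose and none fell by limma, and 12 were at least 2-fold higher in control muscle, with a median response of 0.95. Myh3 had levels of 8.31 after ablation and 2.40 after sham surgery in control muscle and of 8.34 and 2.50 in M-PDK1KO muscle, a difference in array value of 5.91 in control mice and of 5.84 in M-PDK1KO mice (limma, adjusted p = 0.000315). Tnnt2 (cardiac and fetal troponin T) rose by 3.22, Myl4 (the atrial and embryonic myosin light chain) by 3.05 and Actc1 (cardiac actin) by 2.82. Nes (nestin), an intermediate filament of immature and regenerating fibers, rose by 1.63. The cardiac stress genes Nppa and Nppb, also on this list, had responses of 0.16 and 0.32 and were not called.

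Myh8, the perinatal myosin, depended on the probe set. The one used, with the highest mean, had levels of 5.75 after ablation and 4.80 after sham surgery in control muscle and a response of 0.95, whereas the other had levels of 7.51 and 2.60 and a response of 4.91. Both were higher after ablation.

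Promoter windows are shown here only where an exact match to a searched motif was found, so that of Myog, which held none, is left out. Near matches were not searched, so a window without a match may still hold a variant of an element. The promoter of Myh3, the contractile gene with the highest response, comes first. It is the stretch of 250 bases before the annotated start in RefSeq on GRCm38.p6, at chr11:67078050-67078299 on the plus strand, with the TATA box, whose first base lies 29 bases before the start, in capitals.
Myh3: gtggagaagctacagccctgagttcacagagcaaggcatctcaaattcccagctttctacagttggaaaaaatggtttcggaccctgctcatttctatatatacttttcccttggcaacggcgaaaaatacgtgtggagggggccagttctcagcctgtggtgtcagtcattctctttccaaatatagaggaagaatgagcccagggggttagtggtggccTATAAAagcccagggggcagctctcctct

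Of 20 slow fiber genes, 13 rose and 2 fell, with 10 at least 2-fold higher, and their median was 1.28 in control muscle, against 0.77 in M-PDK1KO muscle. Sln, which encodes sarcolipin, a small inhibitor of the calcium pump, had levels of 9.31 after ablation and 4.16 after sham surgery in control muscle and of 9.05 and 5.13 in M-PDK1KO muscle, a rise of 35.5-fold in control mice (limma, adjusted p = 0.00117). The slow troponins rose together, with Tnnc1, Tnni1 and Tnnt1 at 2.91, 2.60 and 2.29. Myl6b, a slow myosin light chain, rose by 2.80 and Casq2, the slow calsequestrin, by 1.72. Myh7, slow myosin, rose by 2.17, with levels of 6.38 after ablation and 4.20 after sham surgery in control muscle and 6.34 and 5.55 in M-PDK1KO muscle (limma, adjusted p = 0.032). The list did not move as a unit. The ventricular and slow myosin light chain Myl2 had a response of 0.47 and was not called, while Myl3 fell by 0.55 and Pln (phospholamban) fell by 0.54. Mrln, which encodes myoregulin, the calcium pump inhibitor of fast fibers, had levels of 6.55 after ablation and 8.39 after sham surgery in control muscle and of 6.26 and 8.32 in M-PDK1KO muscle. It fell by 1.84, the reverse of Sln.

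Of 26 genes of mature fast fibers, 2 rose and 15 fell, with a median response of -0.46, and 4 were at most 0.5-fold. The fast myosins split. Myh2 and Myh1 (myosins 2A and 2X) rose by 0.57 and 0.45, and Myh4 (myosin 2B) fell by 0.46, with levels of 12.23 after ablation and 12.69 after sham surgery in control muscle. The levels of these myosins lay near the top of the array scale. Larger falls were in genes of excitation and signaling: Clcn1, the chloride channel of the fiber membrane, fell by 1.86, Mylk2, the myosin light chain kinase, by 1.20, and Jph1, which joins the T tubule to the calcium store, by 1.14. Pvalb (parvalbumin), the calcium buffer of fast fibers, fell by 0.82.

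**Figure D3:**
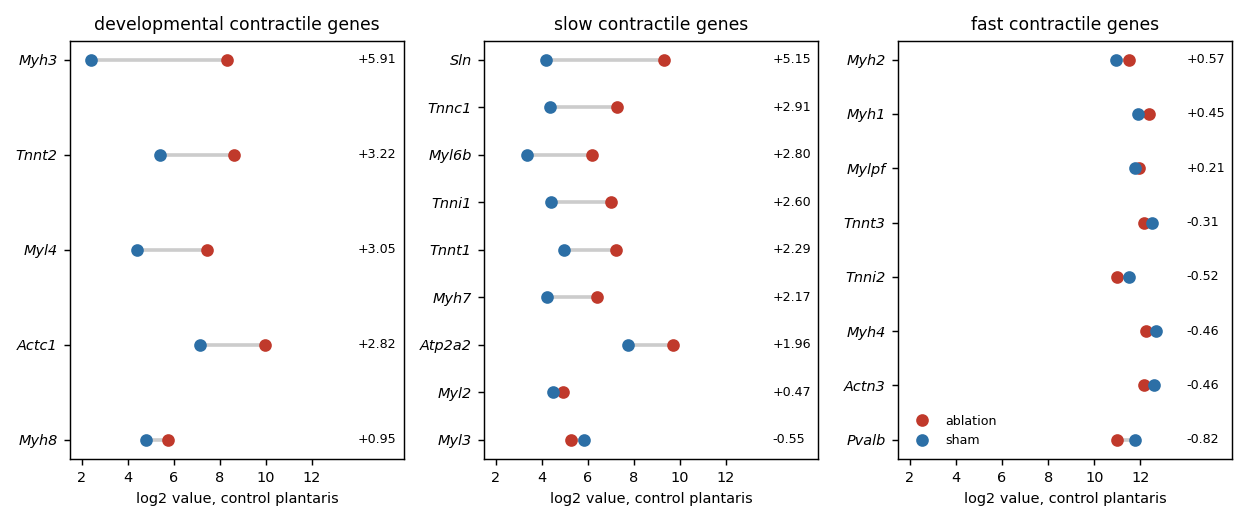
Log2 values of contractile and calcium-handling genes in control plantaris after ablation and after sham surgery, 1 array each, with the response at the right of each row. Developmental and most slow genes sit far apart on the 2 arrays, up to 5.91 for Myh3, and the values of each fast gene lie within 0.82 of each other.

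Of 34 genes of muscle precursor cells and myogenic factors, 7 rose and 4 fell, where 10.4% and 10.6% of all genes did, and the median response was 0.14. The highest response on this list was in a gene of cell fusion. Mymk, which encodes the fusogen myomaker, had levels of 7.33 after ablation and 3.28 after sham surgery in control muscle and of 7.28 and 2.45 in M-PDK1KO muscle, a rise of 4.05 on the log2 scale in control mice (limma, adjusted p = 0.000746). Its partner Mymx (myomixer) had a response of 0.71 and was not called (limma, adjusted p = 0.11), and its levels of 3.30 and 2.59 after ablation and sham surgery were near 3.23. Myog (myogenin), the factor of terminal differentiation, rose by 1.10, with levels of 6.58 after ablation and 5.48 after sham surgery. Pax7, Myf5 and Myod1, the factors of quiescent and activated satellite cells, had responses of 0.28, -0.13 and -0.14 and were not called. Eya1 and Six4, genes of the fast fiber program, fell by 1.27 and 0.85.

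The genes of the neuromuscular junction moved in both directions, with 9 of 20 higher and 5 lower by limma and 4 at least 2-fold higher. Runx1, a transcription factor induced in denervated muscle, had levels of 6.32 after ablation and 3.86 after sham surgery in control muscle and of 6.57 and 3.59 in M-PDK1KO muscle, a rise of 2.47 on the log2 scale in control mice. Ncam1 rose by 1.73, Chrna1 (the acetylcholine receptor alpha subunit) by 1.17 and the fetal subunit gene Chrng by 0.79, with Chrng at levels of only 3.81 after ablation and 3.03 after sham surgery. The adult subunit gene Chrne fell by 0.64, and the subunit genes Chrnb1 and Chrnd had responses of 0.59 and -0.03 and were not called. Among organizers of the synapse, 3 fell, with Musk, the receptor kinase for agrin signaling, falling by 0.88 and its partners Dok7 and Rapsn each by 0.79.

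Ion channels and pumps of the fiber membrane were lower in 16 of 40 cases and higher in 6, with a median response of -0.29. Besides Clcn1, Scn4b (a subunit of the muscle sodium channel) fell by 1.65, the potassium channel genes Kcnq5 and Kcnc1 by 1.31 and 1.22 and Kcna7 by 0.91. With its probe sets averaged, Kcnq5 had a response of -0.67. The risers were accessory subunits and a calcium-activated channel: Atp1b4, a protein of the sodium pump beta subunit family, rose by 2.09, Fxyd5 by 1.95 and Kcnn3, the SK3 potassium channel that reappears in denervated muscle, by 1.44.

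Genes that respond to stretch and to tension on the cytoskeleton were more often higher than lower. Of 37 genes of stretch sensing at the Z disc and at adhesions, 21 rose and 5 fell, and 14 were at least 2-fold higher. Ankrd1, the ankyrin repeat protein that shuttles between titin and the nucleus, had levels of 9.93 after ablation and 6.29 after sham surgery in control muscle and of 9.86 and 6.81 in M-PDK1KO muscle, a rise of 12.5-fold in control mice (limma, adjusted p = 0.000762). Its relatives differed. Ankrd2 rose by 1.79 and Ankrd23 fell by 0.55. The LIM domain genes Csrp2, Fhl2, Csrp3 and Csrp1 rose by 2.93, 2.30, 2.00 and 1.26, whereas Fhl3 fell by 0.71. Of 34 targets and partners of YAP and of serum response factor, 19 rose and 4 fell. Ccn1 and Ccn2, matricellular targets of YAP, rose by 2.67 and 1.96 (1.04 for Ccn2 with its probe sets averaged), the calponins Cnn2 and Cnn3 by 2.25 and 2.24, and the cytoplasmic actins Actg1 and Actb by 1.37 and 1.18. The transcription factor genes themselves went the other way or were not called: Srf fell by 0.83, Tead1 fell by 0.46, and Yap1 had a response of 0.43.

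The promoter of Ankrd1 is shown with its matches to GGAATG, the core of the element bound by TEAD factors, in capitals. It spans chr19:36119845-36120094 on the minus strand of GRCm38.p6 (RefSeq), and the matches begin 210 and 123 bases before the annotated start.
Ankrd1: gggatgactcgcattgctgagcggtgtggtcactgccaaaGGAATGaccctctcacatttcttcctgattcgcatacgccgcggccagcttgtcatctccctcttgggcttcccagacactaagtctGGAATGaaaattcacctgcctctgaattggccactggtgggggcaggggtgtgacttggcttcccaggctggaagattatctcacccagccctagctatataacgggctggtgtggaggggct

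The microtubule genes exchanged forms. Tubb6, a beta tubulin known from regenerating and dystrophic fibers, rose by 2.39, Tuba1a by 2.27 (1.70 with its probe sets averaged) and Tubb5 by 2.15. Tuba8, the alpha tubulin of mature striated muscle, fell by 1.06. Over the list, 11 of 24 rose and 3 fell.

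Matrix genes accounted for many of the strong responses. Of 44 collagen genes, 23 rose and none fell by limma, where 10.4% and 10.6% of all genes did. At least 2-fold higher were 19 of them, against a share of 4.49% over all genes. The fibril collagens Col3a1, Col5a2, Col5a1 and Col11a1 rose by 3.58, 3.69, 3.21 and 3.01, and Col12a1 and Col14a1, which decorate fibrils, by 3.99 and 3.47. Col1a1 and Col1a2, the chains of collagen I, rose by 2.77 and 2.54. Among network collagens, the 3 chains Col6a1, Col6a2 and Col6a3 rose by 2.43, 2.26 and 2.86, and the widely expressed basement membrane chains Col4a1 and Col4a2 by 1.57 and 1.38. The other 4 chains of collagen IV had responses between -0.19 and -0.02. A second probe set of Col5a1, with levels of 3.62 after ablation and 3.33 after sham surgery, gave a response of only 0.29.

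Most enzymes that modify and cross-link collagen rose, 20 of 27 by limma with none lower and a median response of 1.11. Plod2, the lysyl hydroxylase of telopeptides, had levels of 8.0 after ablation and 3.78 after sham surgery in control muscle and of 7.86 and 3.84 in M-PDK1KO muscle, a rise of 18.6-fold in control mice (limma, adjusted p = 0.000486). Within the prolyl 4-hydroxylases, P4ha3 rose by 3.78 with a sham level of 2.81, below 3.23. P4ha1 and P4ha2 had responses of 0.29 and 0.34 and were not called. Lox (lysyl oxidase) rose by 3.50, Loxl1 by 2.68 and Crtap, a partner of prolyl 3-hydroxylase, by 2.35.

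Matrix proteases and their inhibitors were also higher, 23 of 36 by limma with 1 lower. Mmp14, the membrane collagenase, rose by 3.90, the macrophage elastase gene Mmp12 by 2.54 and Adamts12 by 2.20. The tissue inhibitors of metalloproteinases parted. Timp1 had levels of 7.78 after ablation and 3.62 after sham surgery in control muscle and of 7.70 and 3.83 in M-PDK1KO muscle, a rise of 4.16 on the log2 scale, and Timp2 rose by 1.59. Timp3 had a response of -0.25 and was not called. Timp4 had levels of 4.19 after ablation and 6.59 after sham surgery in control muscle and of 4.71 and 6.36 in M-PDK1KO muscle, and it fell by 2.40 (limma, adjusted p = 0.00321).

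The promoter of Mmp13, a gene with levels of 7.02 after ablation and 2.29 after sham surgery, is shown with its match to the AP-1 element (TGANTCA) and its TATA box in capitals. It spans chr9:7272264-7272513 on the plus strand of GRCm38.p6 (RefSeq), and the matches begin 35 and 16 bases before the annotated start.
Mmp13: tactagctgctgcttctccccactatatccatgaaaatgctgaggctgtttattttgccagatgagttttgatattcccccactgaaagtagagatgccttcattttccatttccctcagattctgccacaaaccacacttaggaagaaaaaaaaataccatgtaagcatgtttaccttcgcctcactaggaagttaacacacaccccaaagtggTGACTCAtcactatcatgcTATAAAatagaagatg

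Tendon and activated fibroblast genes had the highest median of all lists, 1.84, with 25 of 28 higher and 2 lower by limma. Tnmd (tenomodulin), a membrane protein of tendon cells, had levels of 9.40 after ablation and 6.71 after sham surgery in control muscle and of 9.28 and 6.81 in M-PDK1KO muscle. It rose by 2.69, the tendon transcription factor genes Scx and Mkx rose by 1.43 and 0.71, and Thbs4, the thrombospondin of tendon and muscle matrix, rose by 2.32. Acan (aggrecan), a proteoglycan of cartilage and of compressed tendon, rose by 2.77. Angptl7 and Chad, also tendon genes, fell by 1.44 and 0.76. All 4 thrombospondin genes measured rose, by 2.32 to 3.68. How much tendon was taken with each muscle is not stated, and its part in these values was not tested.

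Across promoters, the searched motifs are given as a description. RefSeq windows of 300 bases (250 before and 50 after the start, both strands searched) were found for 16918 of 22180 genes, 171 of the 252 genes at least 4-fold higher, 727 of the 995 and 444 of the 564. The AP-1 element was in 11.7% of windows of the genes at least 4-fold higher, in 7.70% of those at least 2-fold higher, in 4.5% of those at most 0.5-fold and in 7.37% of all. The TEAD core GGAATG was in 16.4%, 16.1%, 9.68% and 13.5% of these windows, in the same order, and the E-box CAGCTG in 18.7%, 19.1%, 19.6% and 15.8%. TATAAA was in 16.4%, 12.7%, 10.1% and 12.9%, the CArG box in 2.92%, 2.06%, 0.901% and 1.46%, and the MEF2 element in 1.75%, 1.79%, 3.60% and 2.77%. The windows also differed in composition, with a median CpG content of 3.01% for the genes at least 4-fold higher and 6.52% for those at most 0.5-fold, against 4.35% for all.

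The markers of other cell types in whole muscle moved with these gene groups. Whole muscle RNA does not tell fewer cells of a type from less RNA per cell. Of 26 macrophage and monocyte markers, 22 rose and none fell, with a median level of 6.0 after ablation and 4.37 after sham surgery in control muscle, and only 1 marker was below 3.23 after ablation against 4 after sham surgery. Ms4a7 rose by 3.57, Cd68 by 3.0, C1qb by 2.97 and Adgre1, which encodes F4/80, by 2.09. Cd163 and Lyve1, genes of resident macrophages, had responses of 0.21 and 0.00 and were not called. Of 18 fibroblast markers, 13 rose and 1 fell, with a median level of 7.28 after ablation and 6.48 after sham surgery. Pdgfrl, Mfap5 and Cd248 rose by 3.04, 2.78 and 2.06, and the common markers Pdgfra and Dcn had smaller responses of 0.44 and 0.40, and Dcn was not called.

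The other cell types gave smaller shifts. Neutrophil markers had a median level of 2.41 after ablation and 2.25 after sham surgery, with 11 of 13 below 3.23 after ablation, and only Csf3r rose (0.43). Of 24 markers of lymphocytes, mast cells and dendritic cells, 8 rose. Cd209a and Itgax, genes of dendritic cells and macrophages, were at 2.40 (1.70 with the probe sets of Cd209a averaged) and 1.31. The B cell gene Cd79a was at -0.03. Among 27 endothelial markers, 9 rose and 1 fell. Apln and Aplnr, the apelin ligand and receptor of sprouting vessels, rose by 2.67 and 2.26, whereas Cdh5, a marker of all endothelium, rose by 0.52 and Flt1, a receptor for VEGF, fell by 0.95. Of 14 pericyte and smooth muscle genes, 6 rose and 1 fell, with the contractile genes Tagln and Acta2 at 1.86 and 1.64 and the pericyte potassium channel gene Abcc9 falling by 0.79. Among 14 Schwann cell and nerve genes, 2 rose and 1 fell, where 10.4% and 10.6% of all genes did. Of 17 adipocyte genes, 7 fell and none rose, among them Plin4 (fell by 2.23) and Retn (fell by 1.03), while the defining Adipoq was at 2.87 after ablation and 3.20 after sham surgery, below 3.23 on both. Epidermal genes, markers of skin carried along at dissection, had a median level of 2.46 after ablation and 2.39 after sham surgery in control muscle, and none of 12 was called. Their median response was 0.07 in control and -0.45 in M-PDK1KO muscle, which enters the limma fit, and Krt10, a skin keratin, had levels of 3.78 after ablation and 3.99 after sham surgery in control muscle and of 3.64 and 5.75 in M-PDK1KO muscle. Of the 2 red blood cell genes measured, Bpgm fell by 0.94. The part of these cells in the responses of other genes was not tested.

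**Figure D4:**
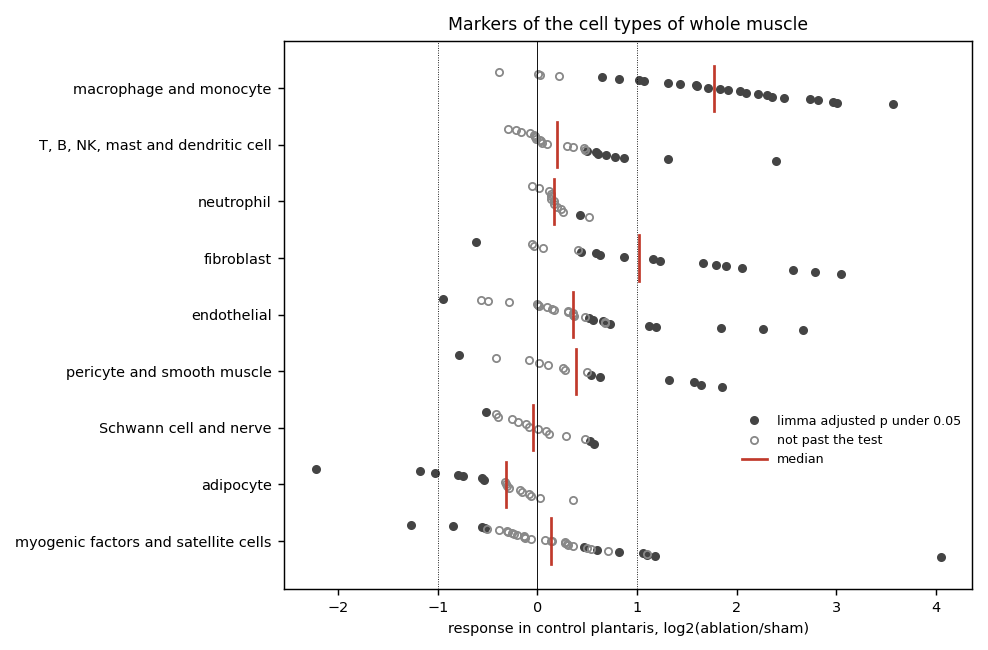
Responses in control plantaris of the marker genes of 9 cell types, 1 point per gene, filled where limma over both genotypes called the gene, with red lines at the medians. Vertical offsets only separate the points. Macrophage markers center on 1.77 and fibroblast markers on 1.01, and the medians of neutrophil, lymphoid and Schwann cell markers lie between -0.04 and 0.20.

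Immune effector genes rose in parts. Of 27 complement genes, 13 rose and 2 fell. The initiating components rose, C4b by 2.93 and C1qa by 2.21, whereas the terminal component gene C7, made by fibroblasts, fell by 1.75 and the protective Cd59a by 0.75. Of 43 chemokine and receptor genes, 18 rose and 1 fell, with Ccl7 at 2.44, Cxcl9 at 2.09 and Ccl2 at 1.89, and Ccl11 (eotaxin) fell by 0.88. Among 29 genes of the interferon response and antigen presentation, 19 rose and none fell. The MHC class II genes H2-Ab1, H2-Aa and H2-Eb1 rose by 3.07, 2.73 and 2.11, Oasl2 by 1.94, and the 3 immunoproteasome genes Psmb8, Psmb9 and Psmb10 by 0.77, 0.53 and 0.46. Of 32 lysosomal genes, 20 rose and 4 fell. The cathepsin genes Ctss and Ctsk rose by 3.89 and 3.78 and the osteoclast and macrophage proton pump gene Atp6v0d2 by 1.81, whereas Gaa, the glycogen-degrading enzyme, and Tfeb, the regulator of lysosomal genes, fell by 0.65 and 0.59.

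Proliferation genes were higher at low levels. Of 47 cell cycle genes, 35 rose and 1 fell, with a median level of 3.99 after ablation and 3.27 after sham surgery. Ccna2 (cyclin A2) had levels of 5.07 after ablation and 2.54 after sham surgery in control muscle and of 5.16 and 2.67 in M-PDK1KO muscle. It rose by 2.53, Top2a by 2.22, and Mki67, the proliferation antigen, by 1.93. The sham level of Top2a was 2.32, so that it and Ccna2 were below 3.23 after sham surgery, and 23 of the 47 genes were. Inhibitors of the cycle rose alongside, with Cdkn1c (p57) at 1.31 and Cdkn1a (p21) at 1.0, while Cdkn1b (p27) fell by 0.67 and Gadd45g by 1.12. Over the list of inhibitors and p53 targets, 8 of 24 rose and 5 fell.

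Of 19 genes of the IGF system, which links growth hormone and load to fiber growth, 8 rose and 3 fell. Igf2 had levels of 7.68 after ablation and 4.88 after sham surgery in control muscle and of 7.52 and 4.91 in M-PDK1KO muscle, a rise of 6.97-fold in control mice. Igfbp4 rose by 2.53, the IGFBP protease gene Htra1 by 1.68 and Igfbp7 by 1.62, and Irs1 and Irs2, the docking proteins below the receptors, fell by 0.37 and 0.66. In the myostatin, activin and BMP system, 6 of 41 genes rose and 8 fell, where 10.4% and 10.6% of all genes did. Besides the ligand gene Mstn, the activin type I receptor gene Acvr1b and the type II receptor gene Acvr2b fell by 1.47 and 1.35, and the antagonist genes Fstl1 and Fst (follistatin) rose by 2.96 and 1.22. Id2, a target of BMP signaling, rose by 2.05, whereas Id1 and Id3 had responses of 0.39 and 0.65 and were not called.

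Igf2 belongs to the imprinted genes, many of which are high in the embryo and silenced after birth. Of 25 such genes, 11 rose and 3 fell, and 9 were at least 2-fold higher. Rian, a noncoding RNA of the Dlk1 domain, rose by 2.82 and Dlk1 by 0.83. The zinc finger genes Plagl1 and Peg3 rose by 2.43 (1.81 with the probe sets of Plagl1 averaged) and 2.28. Meg3, in the same domain as Rian, had levels of 2.68 after ablation and 2.26 after sham surgery, below 3.23 on both. Asb4 went the other way, with levels of 3.33 after ablation and 5.22 after sham surgery in control muscle and of 3.77 and 5.22 in M-PDK1KO muscle, and it fell by 1.90.

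In Wnt and Notch signaling, 11 of 40 genes rose and 4 fell, where 10.4% and 10.6% of all genes did. The risers were mostly secreted modulators made by fibroblasts, with Ccn4 at 3.18, Sfrp2 at 2.26 (1.32 with its probe sets averaged) and Sfrp1 at 2.24, together with the receptor genes Fzd1 and Notch2 at 1.5 and 1.02. Wnt4 had levels of 4.16 after ablation and 5.76 after sham surgery in control muscle and of 3.74 and 5.60 in M-PDK1KO muscle, and it fell by 1.60. Of 23 genes of the pathway that PDK1 belongs to, 4 rose and 8 fell. Pdpk1 itself had levels of 6.85 after ablation and 6.81 after sham surgery in control muscle. Pik3r3, a regulatory subunit of PI3K, rose by 1.16, and the brakes on mTOR, Deptor, Tsc1 and Tsc2, fell by 1.03, 0.91 and 0.86, as did Mtor by 0.63.

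Genes for making ribosomes and proteins showed no general rise relative to other genes. Arrays of nearly the same distribution do not give the amount of RNA per muscle, which was not tested. Of 46 ribosome biogenesis genes, 3 rose and 7 fell, with a median response of -0.08. Over all genes, 10.4% rose and 10.6% fell. Taf1d, a subunit of the RNA polymerase I promoter factor, rose by 1.39 (0.50 with its probe sets averaged) and Myc by 0.82, whereas Polr1a, the largest subunit of RNA polymerase I, fell by 0.55. Of 56 cytosolic ribosomal protein genes, 9 rose and 2 fell, with a median of 0.11. Probe sets of ribosomal protein genes can also detect their many pseudogenes, and Rpl6, with levels of 2.88 after ablation and 4.41 after sham surgery, is one such uncertain value. Of 37 translation factor genes, 3 rose and 9 fell. Eef1a1, the general elongation factor, rose by 1.26 and Eef2k, the kinase that inhibits elongation, fell by 1.22. None of 19 aminoacyl-tRNA synthetase genes rose and 7 fell, Iars most at 0.98.

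The secretory pathway stood apart from this. Of 45 genes of endoplasmic reticulum folding and export, 31 rose and 3 fell, and 16 were at least 2-fold higher. Kdelr3, a retrieval receptor, rose by 2.20, the collagen chaperone gene Serpinh1 by 2.00, Sec24d, a coat protein of collagen export, by 1.90, and Creb3l1, a regulator of secretory genes, by 1.57. Atf4 and Herpud1, genes of the stress response, fell by 0.76 and 0.47, and Xbp1 had a response of 0.12 and was not called.

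Of 36 ubiquitin ligase and other atrophy genes, 21 fell and 4 rose, and 12 were at most 0.5-fold. Kbtbd13, Trim55 and Fbxo31 fell by 1.52, 1.41 and 1.21 and the transcription factor genes Foxo4 and Foxo1 by 1.01 and 0.62. The Asb family, substrate receptors of cullin 5 ligases of which several are muscle genes, had 11 of 18 members lower by limma and none higher. Asb15 and Asb14 fell by 2.03 each and Asb16 and Asb10 by 1.20 and 1.19. Of 39 proteasome genes, 3 rose, all of the immunoproteasome, and 2 fell, one of them the activator gene Psme4, which fell by 0.92. A further list took the genes that the study had measured by RT-PCR in plantaris after the same surgery, with Trim63 and Pdgfc added here beside them, and its direction is not taken as independent evidence. Of its 20 genes, 11 rose and 6 fell, with the ligase gene Fbxo32 falling by 1.90 and Tnc (tenascin C, a matrix protein of loaded tissue) rising by 4.68. Trim36, another ligase gene on it, had levels of 2.23 after ablation and 2.11 after sham surgery, both below 3.23, and a response of 0.13 that was not called. Prodh and Map1lc3a had responses of -0.56 and -0.20 in control mice and were not called either (limma, adjusted p = 0.0681 and 0.852). By RT-PCR the paper reported Trim36, Prodh and Map1lc3a as lower after ablation in both genotypes. Trim63 (MuRF1) fell by 1.05. The metallothionein genes Mt2 and Mt1, which rise in wasting muscle and in inflammation, rose by 1.38 and 0.96.

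Genes of fuel use were lower across pathways, most of all in amino acid catabolism. Of 31 genes of that list, 25 fell and 1 rose, and 14 were at most 0.5-fold, with a median response of -0.98. Within the breakdown of branched-chain amino acids, Ppm1k, the phosphatase that activates the keto acid dehydrogenase, fell by 1.46, its subunit genes Bckdhb and Dbt by 1.43 and 1.08, and Ivd by 1.23. Bcat1, the cytosolic aminotransferase of proliferating and myeloid cells, was the exception and rose by 1.49. Among 32 genes of the citric acid cycle with its entry steps, 25 fell and 2 rose, with Pcx (pyruvate carboxylase) and Me1 (malic enzyme) falling by 1.57 and 1.55 and Pdk3, a kinase of pyruvate dehydrogenase, rising by 1.40. Of 31 fatty acid oxidation genes, 21 fell and 3 rose. Acot2 fell by 1.95, Acacb by 1.33 and Eci1 by 1.11, and the liver form Cpt1a rose by 0.82.

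In oxidative phosphorylation nearly all falls were smaller than 2-fold. Of 62 nuclear genes, 32 fell and 2 rose, with a median of -0.47 and 1 gene at most 0.5-fold, and the responses within complexes I to V ran from -1.02 for Ndufv3, a subunit of complex I, to 0.99 for Cox6a1, a subunit of complex IV. By complex, 16 of 23 genes of complex I fell, 3 of 4 of complex II, 3 of 6 of complex III, 5 of 13 of complex IV and 4 of 15 of ATP synthase. The 10 genes encoded by mitochondrial DNA had a median response of -0.05, between -0.18 and 0.29, and none was called. Their levels, 11.2 to 12.9 after ablation and 10.9 to 13 after sham surgery, lay near the top of the array scale. In glycogen use and glycolysis, 19 of 40 genes fell and 5 rose. The phosphorylase kinase genes Phkb, Phkg1 and Phka1 fell by 1.40, 1.36 and 1.22 and Ppp1r3a, which targets phosphatase to glycogen, by 1.35, whereas Gapdh and Pkm had responses of -0.19 and -0.26 and were not called. Pgm2, a phosphopentomutase, rose by 1.92.

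Most regulators of energy use fell, 23 of 37 by limma with none higher. Ppargc1a, the coactivator of mitochondrial genes, had levels of 6.54 after ablation and 7.87 after sham surgery in control muscle and of 6.20 and 7.61 in M-PDK1KO muscle, and fell by 1.34. Perm1 fell by 1.31, Rxrg by 1.76 and Txnip by 1.03, and the genes of the AMP-activated kinase subunits that muscle uses, Prkab2, Prkaa2 and Prkag3, fell by 1.90, 1.24 and 1.24. Of 19 clock genes, 12 fell and 1 rose. Those of the output and repressor arms fell, Tef by 1.15 (with a response of -0.30 when its probe sets were averaged), Dbp by 1.12 and Nr1d1 by 0.98, while Npas2 rose by 0.78 and Arntl had a response of 0.45 and was not called. The time of day at collection is not stated.

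Supply routes for building blocks gave mixed results. Of 25 amino acid transporter genes, 10 rose and 3 fell. Slc38a1, Slc7a5 (LAT1), Slc1a4 and Slc7a1 rose by 1.39, 1.27, 1.10 and 1.03, and Slc43a1 (LAT3) and Slc38a4, transporters of mature muscle and liver, fell by 1.31 and 1.25. Among 25 genes of the pentose phosphate, serine and one-carbon routes, 7 rose and 5 fell, with Aldh18a1, the entry enzyme of proline synthesis, at 1.23 and Pgd at 1.06. Of 12 polyamine genes, Srm (spermidine synthase), Sat1 and Azin1 rose by 1.04, 0.88 and 0.59 and Smox (spermine oxidase) had levels of 6.43 after ablation and 8.65 after sham surgery in control muscle and of 6.11 and 9.0 in M-PDK1KO muscle, a fall of 2.22.

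Most microRNA genes had low levels. All 14 muscle microRNA genes, Mir206 and Mir133a-1 among them, had levels below 3.23 on both control arrays, and none was called. Of 20 matrix and immune microRNA genes, 18 were below 3.23 after ablation. Mir142, a microRNA gene of blood cells, had levels of 4.03 after ablation and 3.22 after sham surgery and a response of 0.82, and Mir483, within Igf2, had levels of 5.88 and 5.91, and neither was called. On this list only Mir335 was called, lower by 0.77 at levels of 2.17 after ablation and 2.94 after sham surgery. No microRNA gene of these lists passed the 2-fold or 0.5-fold cutoff.

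**Figure D5:**
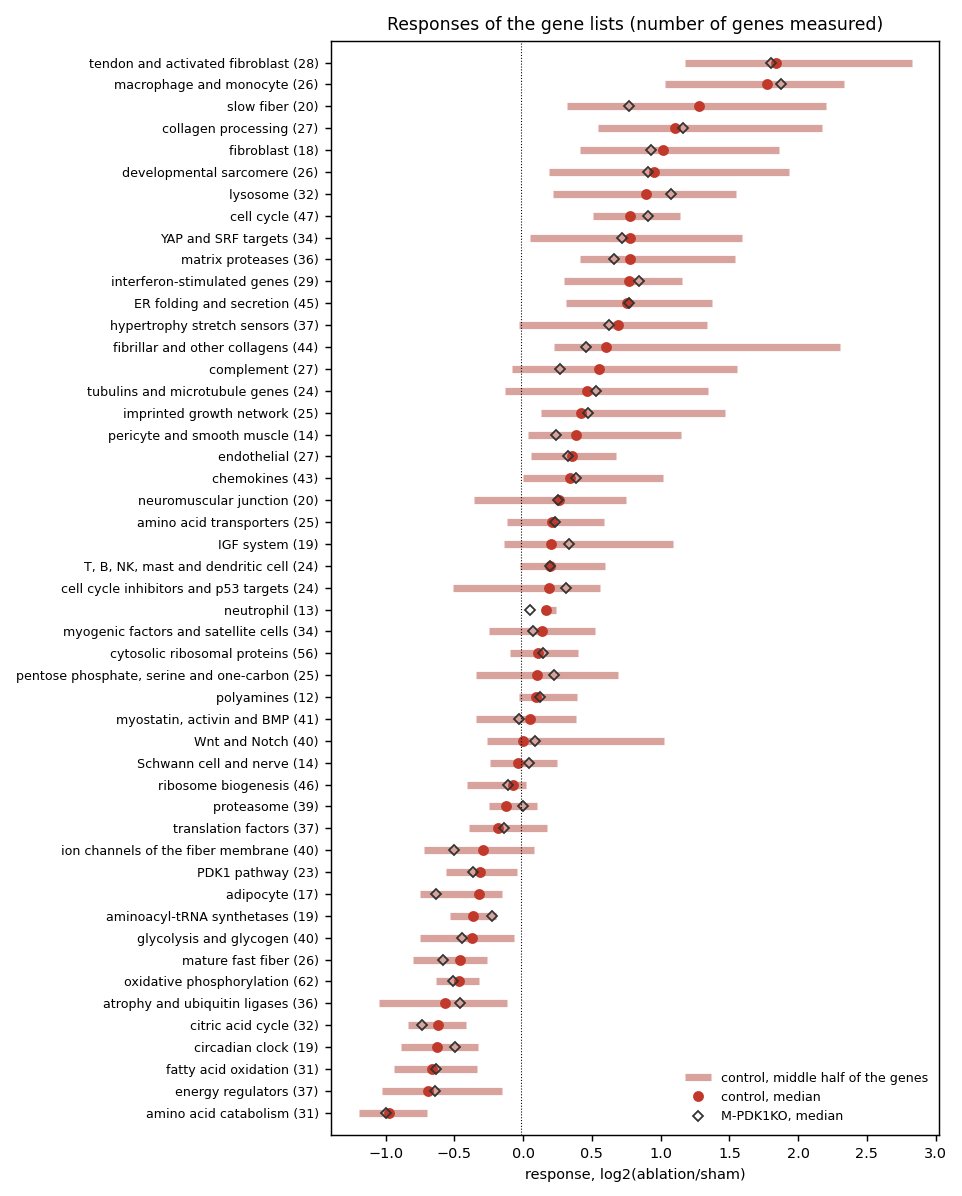
Median response (red points) and middle range of the genes (bars, interquartile range) in control plantaris for the lists of 12 or more measured genes (microRNA, RT-PCR and epidermal lists left out), with the median in M-PDK1KO plantaris as open diamonds and the median of all genes as a dotted line. Tendon, macrophage and slow fiber lists lie highest at 1.84, 1.77 and 1.28 in control muscle, and amino acid catabolism lies lowest at -0.98.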

How the data were processed

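RNA of the plantaris was hybridized to 1 array per condition, 4 in all. The authors deposited 1 log2 value per probe set and array, and that scale is inferred from the range of the values. The methods name Transcriptome Viewer, and the background correction, summarization and normalization are not given in the sources used here.

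Probe sets naming several genes (1820) or none (16004) were left out. For 1082 genes with several probe sets, the brightest one on average was kept, with no filter on level. Limma 3.58.1 (R 4.3.3) fitted additive terms for genotype and surgery, and its p-values were adjusted after Benjamini-Hochberg over all genes. On simulated arrays over 22180 genes, this fit called 48 of 50 genes raised 2-fold, 48 of 50 lowered 2-fold and 7 of 21980 unchanged genes. The 2-fold cutoff on 1 array a side caught 28 of those 50 raised and 20 of those 50 lowered genes. The simulation held 200 changed genes, whereas the fit called 2309 genes higher and 2354 lower on the real arrays. Its share of unchanged genes called is therefore not the error rate of the real fit, which was not tested. Tables were handled in pandas 2.3.3 (Python 3.11.15) with numpy 2.4.6 and plotted in matplotlib 3.10.9.

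Of 1638 symbols on 55 lists, 1466 genes were measured. The comparison and the lists were chosen with earlier results of these data known, and 1 gene was taken off the BMP list, where it did not belong, after its values were seen. The genes named are the 40 highest and 30 lowest responses (unnamed models, receptor and segment families and small RNAs aside), the 6 largest responses and the first 3 genes of each list, and the RT-PCR and PDK1 pathway lists. Other list and family members, probe sets and isoform pairs were picked after their values were seen. Alternatives were other fold cutoffs, other treatments of probe sets, a filter on level, quantile normalization, centring, and limma with a trend or with ablation alone.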

Additional observations from a re-analysis of the deposited data

Results flagged for a closer look

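Btg2, which encodes an antiproliferative protein induced by p53 and by growth stimuli, was singled out because its responses had opposite signs in the genotypes, at 1.42 in control mice and -0.12 in M-PDK1KO mice. The difference, -1.54 for M-PDK1KO minus control, was not tested, since each condition has 1 array. Outlying samples could not be looked for in groups of 1 array.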

How the results depend on the processing

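The number of responding genes followed the cutoff. At 1.5-fold and its inverse, 2087 genes were higher and 2054 lower, and at 4-fold and its inverse 252 and 34. Counted over all probe sets, with or without a gene name, 1537 passed the 2-fold cutoff and 1091 the 0.5-fold one. Under the other alternatives the counts stayed within 960 to 1026 genes higher and 527 to 565 lower, and those of limma within 2294 to 2501 higher and 2354 to 2813 lower. Averaging all probe sets of a gene moved 18 of 477 named genes beyond the spread of the difference between the genotypes' responses. Among them were Ccn2 (1.04), Rpl3 (0.32), Taf1d (0.50), Kcnq5 (-0.67), Tef (-0.30), Hif1a (1.55) and Sfrp2 (1.32). Only genes with several probe sets, 1082 of all 22180, can change in this way, so most of the named genes could not move. Quantile normalization moved none of the named genes. The filter on level moved 18 of 54 list medians by over 0.1, quantile normalization 6 of 55 and the mean of probe sets 3 of 55. Of 75 further probe sets of genes at least 2-fold higher, 73 had the same sign and 48 passed the cutoff, and of 28 for genes at most 0.5-fold, 24 and 14. No replicate could be left out with 1 array a condition. No paired analysis was possible because the arrays carry no replicate numbers. Signal limits the reading of the genes below a level of 3 and of those at 11 or more.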

Other observations

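Many enzymes and structural proteins are encoded by a gene used by adult muscle fibers and a related gene used by immature or other cells. Over 21 measured pairs of 24 listed, the adult muscle form had the lower response in 21, with a median of -0.81 for the muscle forms and 0.46 for the others. These include other forms below 3.23 on both control arrays, whose responses are only differences of array values. Ckmt1 had levels of 2.17 after ablation and 2.08 after sham surgery, and Fbp1 2.31 and 2.20. Limma over both genotypes called 20 muscle forms lower, 11 of the other forms higher, and both in opposite directions in 10 pairs. The pairs were written down after values of some had been seen, so these counts describe them and test nothing.

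Within cytochrome c oxidase, Cox6a2 and Cox8b, the heart and muscle forms, fell by 0.55 and 0.93, while the general forms Cox6a1 and Cox8a rose by 0.99 and 0.57. In these pairs the muscle form had levels of 10.02 and 9.91 after ablation and 10.57 and 10.84 after sham surgery in control muscle, and the general form 9.74 and 7.70 after ablation and 8.75 and 7.13 after sham surgery. The third pair differed in that Cox7a1 fell by 0.81 and its partner Cox7a2 had a response of -0.33 and was not called.

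The same order was seen in glycogen and sugar use. Pygm, the muscle phosphorylase, fell by 0.65 and Pygb, the brain form, rose by 1.24. Pfkm fell by 0.70 and Pfkp rose by 0.74, Hk2 fell by 0.67 and Hk1 rose by 0.46, and Pgam2 fell by 0.72 and Pgam1 rose by 0.49. In translation, Eef1a2, the elongation factor of mature muscle and neurons, fell by 0.56 and Eef1a1 rose by 1.26. Of the mitochondrial ADP/ATP carriers, Slc25a4 fell by 0.48 and Slc25a5 rose by 0.74, and of the talins, Tln2 fell by 0.62 and Tln1 rose by 0.69. The brain creatine kinase gene Ckb rose by 1.60, with Ckm at -0.37 and not called. Macrophage and fibroblast markers, with median responses of 1.77 and 1.01 in control muscle, moved in the direction of the other forms, and their part in these values was not tested.

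Kelch-like genes, adaptors of cullin 3 ligases, had 6 of 37 members higher and 8 lower, where 10.4% and 10.6% of all genes were called. Klhl33 and Klhl21 fell by 2.19 and 1.10, and Klhl41, which stabilizes thin filament proteins, rose by 0.48.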
